A study of Mus musculus with 2 samples.

Results

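Proliferating chondrocytes were cartilage cells of the fracture callus that carried transcripts of the mitotic cycle. They were chosen by their own counts of unique molecular identifiers (UMIs, each standing for 1 captured transcript), in each library separately. A barcode had to pass 200 detected genes and at most 20% mitochondrial UMIs, hold at least 5000 UMIs, and carry, per 10000 of its UMIs, at least 100 of Col2a1 (type II collagen), at least 10 of Acan (aggrecan) and fewer than 50 of S100a8, S100a9, C1qa, C1qb and C1qc together, which are neutrophil and macrophage genes. Among these chondrocytes, a cell was counted as proliferating when Mki67, Top2a, Birc5, Ube2c, Cdk1 and Cenpf together reached 10 UMIs, whatever its Col10a1. In library MGJ, 133 of 2500 chondrocytes met the rule, out of 14295 barcodes. In library MGJ2, 2 of 105 chondrocytes met it, out of 8009 barcodes. The chondrocytes below 10 UMIs of the 6 genes, 2367 in MGJ and 103 in MGJ2, served as the comparison cells.

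The study collected femoral fracture calluses of wild-type C57BL/6J mice at 10 days (n = 5) and 20 days (n = 5) after fracture, a model in which bone forms through a cartilage intermediate, and dissociated them enzymatically for droplet-based 3' single-cell RNA sequencing. The labels name no altered allele and no agent, and the methods of the study give male mice of 12 weeks for its work in vivo. The labels did not say which library held which day, so no comparison between days was made and the libraries are described side by side. Mice within a library could not be told apart, each library is therefore 1 sample without replicates, and intervals below are exact 95% intervals for counting error only. MGJ held 135304426 UMIs and MGJ2 61130834, and 19 barcode sequences occurred in both, none of them a proliferating chondrocyte.

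In endochondral repair, as in the growth plate, chondrocytes first divide, then leave the cell cycle and enlarge into hypertrophic cells that make type X collagen and mineralising proteins. Indian hedgehog (Ihh), secreted by cells entering hypertrophy, and parathyroid hormone-related protein acting on Pth1r form the classical loop that sets how long chondrocytes keep dividing. Cell division itself runs through DNA synthesis in S phase, when licensing and replication-fork proteins are made, and through G2 and mitosis (G2M), when spindle, kinetochore and chromosome-condensing proteins accumulate. Inhibitors of cyclin-dependent kinases (CDKs) hold cells outside or between these phases. Many G2M genes carry in their promoter a cell cycle homology region (CHR), bound by the DREAM and MuvB complexes, often with an upstream CCAAT box bound by NF-Y, whereas many S genes carry E2F sites.

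The promoters of 4 genes that were far higher in the proliferating cells are shown because the CHR and CCAAT letters lie close to the transcription start there. They are the tested genes of highest ratio that held a CHR (TTTGAA or TTCGAA, either strand) within the last 60 bases before the RefSeq start and a CCAAT (either strand) within 120 bases. Each line gives the 120 bases before the start on the strand of the gene, GRCm38.p6, 5' to 3', with both motifs in capitals.
Depdc1a, chr3:159495313-159495432, plus strand: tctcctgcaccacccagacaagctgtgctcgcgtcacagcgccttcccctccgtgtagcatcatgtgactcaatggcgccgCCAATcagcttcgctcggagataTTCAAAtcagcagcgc
Kif11, chr19:37376262-37376381, plus strand: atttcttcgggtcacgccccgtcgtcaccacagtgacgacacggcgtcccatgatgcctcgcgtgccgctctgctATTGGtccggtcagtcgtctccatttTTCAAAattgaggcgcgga
Prc1, chr7:80294356-80294475, plus strand: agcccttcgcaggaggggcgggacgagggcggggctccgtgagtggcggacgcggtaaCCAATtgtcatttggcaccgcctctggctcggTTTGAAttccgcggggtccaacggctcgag
Cdc20, chr4:118437344-118437463, minus strand: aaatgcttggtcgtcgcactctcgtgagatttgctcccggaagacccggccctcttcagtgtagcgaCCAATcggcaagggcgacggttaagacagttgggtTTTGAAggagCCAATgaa
In these promoters, CHR letters began 16 (Depdc1a), 19 (Kif11), 30 (Prc1) and 18 (Cdc20) bases before the start, and a CCAAT letter run stood 39, 45, 62 and 53 bases before it in the same order, with another in Cdc20 at 8 bases.

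The rule genes are described first, without a test, since the cells were selected on them. In MGJ, the 6-gene sum was 0 in most cells and had a long tail without a gap at the threshold. Of the 2500 chondrocytes, 1918 held 0 of these UMIs, 396 held 1 or 2 and 53 held 3 to 9. A further 29, 27, 47 and 30 held 10 to 19, 20 to 39, 40 to 79 and 80 or more. The proliferating cells ranged from 10 to 186 UMIs with a median of 44, so most were far from the threshold. Around the threshold itself, 5, 6 and 3 comparison cells held 7, 8 and 9 UMIs, and 5, 3 and 2 proliferating cells held 10, 11 and 12. In MGJ2 no chondrocyte lay near it, since the 2 proliferating cells held 249 and 187 UMIs and the highest comparison cell 4. The share over the threshold was 5.32% (Clopper-Pearson interval 4.47 to 6.27) of chondrocytes in MGJ and 1.90% (0.232 to 6.71) in MGJ2. For reference, 438 of 4651 other barcodes of at least 5000 UMIs in MGJ (9.42%) and 491 of 3858 in MGJ2 (12.7%) reached the same 10 UMIs.

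**Figure D1:**
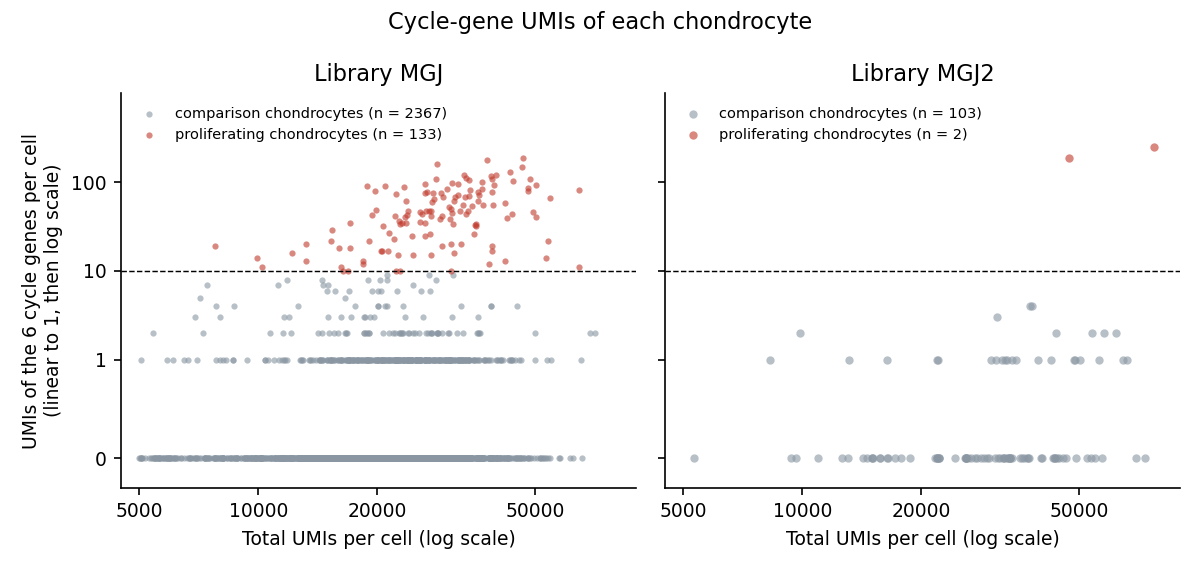
Each point is a chondrocyte, placed by its total UMIs (log scale) and its UMIs of the 6 cycle genes (linear to 1, then log scale), with proliferating chondrocytes in red, comparison chondrocytes in grey and the threshold of 10 UMIs as a dashed line. In MGJ the 133 proliferating cells spread from 10 to 186 UMIs, whereas in MGJ2 the 2 cells, at 249 and 187 UMIs, stand far above the other 103.

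Each of the 6 rule genes took part. Per 10000 UMIs of a cell in MGJ, the lowest, median and highest proliferating cell had 0, 3.27 and 8.56 of Top2a, the topoisomerase that disentangles sister chromatids, and 0, 3.20 and 9.11 of Birc5, the survivin subunit of the chromosomal passenger complex. For Ube2c, the ubiquitin-conjugating enzyme of the anaphase-promoting complex, they had 0, 2.86 and 17.0, and for Cdk1, the mitotic kinase, 0, 2.47 and 15.2. Mki67, the Ki-67 chromosome-coating protein, had a median of 1.76, and Cenpf, a kinetochore-associated protein, 1.08. Individual cells often lacked one of the genes: Cenpf was at 0 in 26 of the 133, Mki67 in 14, Cdk1 in 12, Ube2c in 11, Top2a in 9 and Birc5 in 1. The median comparison cell was at 0 for all 6 genes. In the 2 cells of MGJ2 none of the 6 was at 0.

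The cartilage label held in both libraries. Of 12 chondrocyte markers, 10 were not used by the rule, and in MGJ every one of these 10 was higher in the proliferating cells than in the 4506 other barcodes of at least 5000 UMIs outside the cartilage gate, by 5.76-fold for Sox9, the master transcription factor of cartilage, up to 41.6-fold for Matn3, a cartilage matrix protein. The median proliferating cell had 34.2 UMIs of Col9a1 (type IX collagen), 24.8 of Hapln1 (link protein) and 7.21 of Sox9 per 10000, where the median other barcode had 0 of each. In MGJ2 the same markers were 65.6-fold (Sox9) to 1099-fold (Matn3) higher than in 3857 other barcodes. All 12 markers, with Col2a1 and Acan of the rule, summed to a median of 881 UMIs per 10000 (at most 1508) in the proliferating cells of MGJ. The comparison cells had 1063 (at most 2876), and the ratio of the summed CPM was 0.833 (0.830 to 0.836). Col2a1 alone made 48012 of the 87551 CPM in the proliferating cells, so this ratio rests largely on a gene of the rule and only describes the cells.

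Proliferating cells held more UMIs and more genes. In MGJ they had a median of 29199 UMIs and 4815 genes, against 21838 UMIs and 3772 genes in the comparison cells. With each cell thinned to 5000 UMIs, the median number of genes was 1793 (quartiles 1732 and 1871) against 1630 (1553 and 1709.5). A fixed threshold of 10 UMIs is passed more easily by a deep cell. With a threshold of 5 UMIs per 10000 in its place, the share in MGJ was 5.16%. Scrublet, a doublet caller, marked 2 of the 133 cells in MGJ (138 of 13460 barcodes in all) and neither of the 2 in MGJ2. It called 1.03% of barcodes in MGJ and 2.86% in MGJ2, below the expected rates of 11.4% and 6.41% set for it. Unmarked doublets may therefore remain.

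Transcripts of blood progenitors moved with the rule. In MGJ, 5 of 133 proliferating chondrocytes (3.76%, 1.23 to 8.56) carried at least 10 UMIs of either the granule genes Mpo, Elane, Prtn3, Ctsg and Ms4a3 or the pre-B genes Vpreb1, Vpreb3 and Igll1, against 3 of 2367 comparison cells (0.127%). Of these, 3 cells held 848 of the 852 granule-gene UMIs and 2 cells held 77 of the 84 pre-B UMIs, so the other proliferating cells were almost free of both. Over whole marker lists, the erythroid genes summed to a ratio of 0.165 (Alas2, Car1 and Klf1 were among the genes at 0), but 3 comparison cells held 79.5% of the comparison UMIs, and a UMI of the list was found in 45.9% of proliferating and 36.5% of comparison cells. The neutrophil and macrophage lists stood at 0.828 and 0.829, the myeloid progenitor list at 1.10 and the B lineage list at 1.64 (Ms4a1 and Rag1 at 0). The T and NK list was at 1.24 with Cd3e, Cd8a, Gzma and Ncr1 at 0, the endothelial list at 1.29, the osteoclast list at 1.13 with Dcstamp, Oscar and Calcr at 0, the osteoblast list at 0.810 and the fibroblast and tendon list at 1.07 with Pi16 at 0. Values without the 5 cells are given where they differ by more than 1.5 times.

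To see which other genes accompanied the rule genes, the UMIs of all proliferating cells of MGJ were summed and set against those of the comparison cells as CPM (UMIs per 1000000 UMIs of the summed cells). Of 10333 genes with at least 10 UMIs expected in the proliferating cells, 684 (6.62%) were at least 2-fold higher there and 317 (3.07%) at least 2-fold lower, with a median ratio over all tested genes of 1.09. A ratio of at least 10 was reached by 84 genes (0.813%). All these ratios come from the contrast that the rule itself sets up, so they describe the cells and test nothing. The filter counts UMIs of both groups, so a gene nearly absent from the comparison cells passed only if it was high in the proliferating cells.

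The 15 genes of highest ratio were all genes of mitosis or DNA synthesis. Hmmr, a spindle-associated hyaluronan receptor (chr11:40701395-40733422 in the GRCm38 annotation, minus strand), summed to 93.6 CPM against 0.151, a ratio of 621 (312 to 1448), which was 390.2 when each cell weighed equally. Its lowest, median and highest proliferating cells had 0, 0.587 and 6.0 UMIs per 10000, and 39 of 133 were at 0, so single cells overlapped with the comparison cells, of which 2360 of 2367 were at 0. Pbk, a mitotic kinase, followed at 496, Aurkb, the kinase of the chromosomal passenger complex, at 291, Cenpe, the kinetochore motor, at 259, and Depdc1a at 237. Ccna2 (cyclin A2, of S phase and G2) stood at 191, Nusap1 at 174 and Pclaf, the PCNA-associated factor, at 164, the last at 87.7 when the threshold was set per 10000 UMIs. Shcbp1 (151), the spindle motors Kif4 (140), Kif11 (134) and Kif15 (130), Cdca8 (126), Nuf2 of the kinetochore (125) and Aspm of the spindle pole (114) completed the 15.

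Cell cycle genes that passed the filter were mostly higher. Of 48 other G2M genes, 36 passed, and these 36 were all at least 2-fold higher (6.62% of all tested genes were). Their median ratio was 31.1 and their lowest 2.33. The whole list summed to 4994 CPM against 569, a ratio of 8.78 (8.63 to 8.94). All 15 spindle motor and cytokinesis genes that passed, of 26 listed, were higher, with a median of 105. So were all 17 kinetochore and spindle checkpoint genes that passed, of 25 listed, with a median of 40.9. For genes nearly absent from the comparison cells, the filter fixed this direction in advance. Prc1, which bundles the central spindle, stood at 98.8, Cdc20, the activator of the anaphase-promoting complex, at 59.4, and Cenpa, the histone variant of centromeres, at 40.9. Ccnb1 (cyclin B1, the partner of Cdk1) was at 119 against 2.24 CPM, a ratio of 53.0 (43.3 to 65.3), and its lowest, median and highest proliferating cells had 0, 0.512 and 8.19 UMIs per 10000, with 40 of 133 at 0.

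The genes of chromosome structure were higher with 1 exception among those named here. Of 28 genes of chromatin and nuclear structure, 22 were at least 2-fold higher and none lower, where 6.62% and 3.07% of all tested genes were. H2afz, the histone variant H2A.Z, summed to 1863 against 220 CPM (8.48, 8.23 to 8.73), Stmn1, the microtubule-destabilising stathmin, to 507 against 7.30 (69.5), and Hmgb2, a chromatin protein, to 950 against 126 (7.53). Hmgb2 was at 0 in 2 of 133 proliferating cells and in 652 of 2367 comparison cells, and its medians were 9.60 and 0.768 UMIs per 10000, so the groups overlapped at their edges. Lmnb1, the lamin whose loss accompanies senescence, stood at 4.58 (3.89 to 5.37). Among condensin and cohesin genes 9 of 12 were higher, with the condensin core Smc2 at 51.1, but Pttg1, the securin that restrains separase, stood at 0.625 (0.485 to 0.795), and at 1.08 (0.833 to 1.39) against the comparison cells low in Col10a1.

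Genes of DNA synthesis were higher too, by less. Of 29 S genes that passed the filter, 27 were at least 2-fold higher and none lower, where 6.62% and 3.07% of all tested genes were. Their median ratio was 6.17, and the whole list summed to 1347 against 254 CPM (5.31, 5.14 to 5.48). All 30 replication licensing and fork genes that passed, of 39 listed, were higher, with the same limit of the filter. The sliding clamp Pcna was at 139 against 43.1 CPM (3.23), the helicase subunit Mcm5 at 27.8 against 1.51 (18.4), and the ribonucleotide reductase subunit Rrm2 at 66.5 against 1.75 (37.9). Thymidine kinase Tk1 stood at 54.8. Of 12 E2F and mitotic transcription factors 8 were higher, among them Foxm1, the activator of G2M genes, at 41.9, and E2f1 and Mybl2 at 6.64 and 6.63. Cyclins and CDKs were split: 10 of 16 were higher, while Ccnd1 (cyclin D1) was at 1.66 and its partners Cdk4 and Cdk6 at 1.34 and 1.37. The E cyclins Ccne1 and Ccne2, which act at the G1 to S transition, were too low to pass the filter and stood at 20.0 (12.4 to 32.5) and 11.1 (7.64 to 16.2).

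Among the 300-base promoters given by RefSeq (250 bases before to 50 after the start, 32851 promoters), the CHR letters were found in 19.2% of all promoters and in 13.5% of the 10525 promoters of tested genes. Of the 684 genes at least 2-fold higher, 534 had a promoter in the table, and 25.6% of their 675 promoters held the letters. Of the 84 genes at least 10-fold higher, 67 were found, and 42 of their 76 promoters (55.3%) held them, as did 33 of 46 promoters (71.7%) of the other G2M genes and 6 of 34 (17.6%) of the S genes. Promoters of the genes at least 2-fold lower held them in 10.5% of 313. CCAAT, searched on both strands, stood in 37.4% of all promoters, 65.8% of those of the 10-fold genes, 73.9% of the G2M list and 67.6% of the S list. The E2F letters (TTTGGCGC, TTTCCCGC, TTTGCCGC or TTTCGCGC, both strands) were in 2.26% of all promoters and 3.82% of those of tested genes. They were in 9.78% of those of the 2-fold higher genes, 19.7% of the 10-fold genes, 4.35% of the G2M list and 35.3% of the S list. The motifs were searched independently, so matches of different motifs can share bases. They are matches of letters in a fixed window and say nothing of binding.

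Within the proliferating cells, S and G2M transcripts varied separately. With each cell thinned to 5000 UMIs, the lowest, median and highest proliferating cell of MGJ held 0, 5 and 24 UMIs of the S genes and 4, 21 and 102 of the other G2M genes, while the median comparison cell held 1 and 2. Taking as a limit the 99th percentile of the comparison cells (6 and 10 UMIs), 48 proliferating cells (36.1%) were above both, 72 (54.1%) above the G2M limit alone, 3 above the S limit alone and 10 above neither. The Spearman correlation across the 133 cells was -0.079 between the S and G2M sums, 0.697 between the G2M sum and the rule genes and -0.107 between the S sum and the rule genes. All 3 sums came from the same thinned 5000 UMIs of a cell. All 6 rule genes stand on the same published G2M list, so a cell with S transcripts alone was not chosen by the rule. The correlations hold only within cells chosen in this way. Both cells of MGJ2 were above the G2M limit alone, with thinned sums of 33 and 39 for G2M and 2 and 3 for S.

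**Figure D2:**
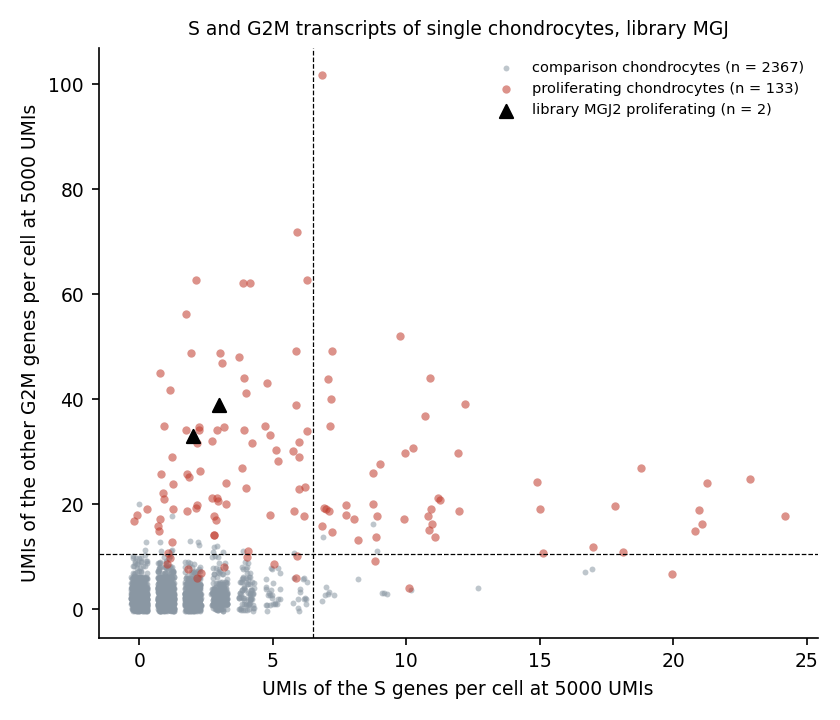
Each point is a chondrocyte of MGJ thinned to 5000 UMIs, placed by its UMIs of the S genes and of the other G2M genes (shifted slightly at random to separate points), with proliferating chondrocytes in red, comparison chondrocytes in grey, the 2 proliferating cells of MGJ2 as black triangles and the limits of 6 and 10 UMIs as dashed lines. The 133 red points run along the G2M axis up to 102 UMIs, and 72 of them lie above the G2M limit and within the S limit.

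Bands of rule-gene UMIs are only described, since these 6 genes chose the cells and share a published list with the other G2M genes. In cells with 10 to 19, 20 to 39, 40 to 79 and 80 or more rule-gene UMIs, the median thinned G2M sum was 14, 18, 24 and 35, whereas the median S sum was 3, 8, 6 and 4. The same bands had median Col10a1 of 0.938, 0.982, 1.10 and 1.0 UMIs per 10000. Summed Col10a1 was 4281 CPM in the first band against 292, 431 and 452 CPM in the others. The cells highest in Col10a1, at 283 and 442 UMIs per 10000, held 12 and 17 rule-gene UMIs. The cells were also ordered by the share of S among S and G2M UMIs, and the upper 64 set against the lower 64. The 5 cells with blood progenitor transcripts were left out. The split was made on cycle counts, so it is described only. The sides also differed in the selecting genes, with a median of 36.5 rule-gene UMIs in the S side and 68.5 in the G2M side. Of 7029 genes compared, only some cycle genes outside both sums are named here, as examples. Ccne1 (cyclin E1, of the G1 to S transition) had 43 UMIs in the S side and 1 in the G2M side, Mcm3 57.9 against 7.42 CPM (7.80, 4.46 to 14.7) and the phosphatase Cdc25a a ratio of 7.02. On the other side Ccnb1 was at 199 against 50.1 CPM (3.96, 3.16 to 5.01), Plk1, a mitotic kinase, at 2.49 and Ccnd1 at 1.45. Median Col10a1 was 1.02 UMIs per 10000 in both sides.

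Which chondrocytes carried cycle transcripts can be read against Col10a1, which the rule did not use. In MGJ, 65 of 910 chondrocytes with fewer than 1 Col10a1 UMI per 10000 were proliferating (7.14%, 5.56 to 9.01), and 59 of 797 with 1 to 10 (7.40%, 5.68 to 9.45). Of 352 cells with 10 to 100, 6 were (1.70%, 0.628 to 3.67), and of 441 cells with 100 or more, 3 were (0.680%, 0.141 to 1.98). The intervals of the lower bands did not overlap those of the upper bands, but they hold counting error within 1 library only. Cells are not replicates, so this is no test. After thinning to 5000 UMIs, with at least 3 rule-gene UMIs asked for, the shares were 6.92%, 7.78%, 1.14% and 0.680%, in the same order. In MGJ2, 1 of 33, 0 of 16, 1 of 18 and 0 of 38 chondrocytes were proliferating, counts too small to order.

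**Figure D3:**
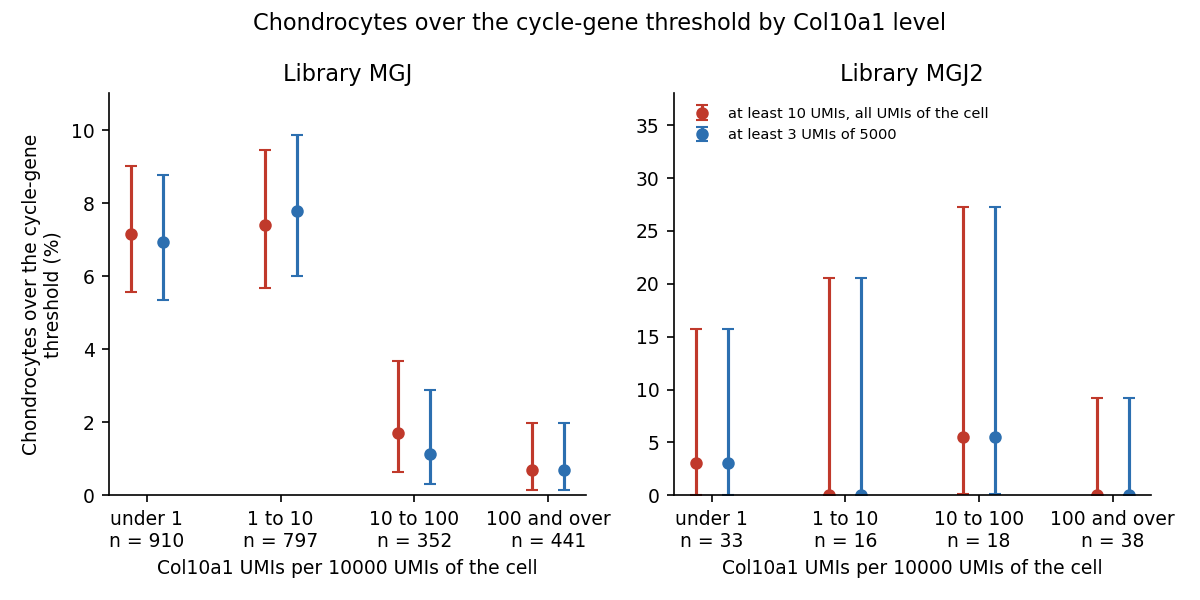
Points give the percentage of chondrocytes over the cycle-gene threshold in 4 bands of Col10a1 (UMIs per 10000 UMIs of the cell), with exact 95% binomial intervals, red for at least 10 UMIs in the whole cell and blue for at least 3 UMIs after thinning to 5000. In MGJ the share lies at 7.14% and 7.40% in the lower bands and at 1.70% and 0.680% in the upper bands, and in MGJ2 each point rests on 0 or 1 cell.

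Col10a1 itself was low in most proliferating cells. The lowest, median and highest cell of MGJ had 0, 1.0 and 442 UMIs per 10000, the median comparison cell had 1.66, and the median of the 4651 other barcodes of at least 5000 UMIs was 0.726, so the median proliferating cell was near the level of barcodes outside the chondrocytes. Summed, Col10a1 was at 1102 against 6510 CPM, a ratio of 0.169 (0.164 to 0.174), and at 0.108 without the 5 cells that carried blood progenitor transcripts. With a threshold of 20 rule-gene UMIs the ratio was 0.0626. Of its 4439 UMIs in the proliferating cells, 3885 (87.5%) lay in 9 cells with 10 or more per 10000. The other 124 cells held 149.7 CPM, against 151.6 CPM in the 1583 comparison cells below the same 10 per 10000.

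The 9 cells differed among themselves. Their Col10a1 ran over 11.8, 19.8, 28.7, 31.0, 36.3, 41.6, 174, 283 and 442 UMIs per 10000, with 15, 11, 10, 87, 80, 34, 76, 12 and 17 rule-gene UMIs in the same order. The cell with 87 rule-gene UMIs had 455 UMIs of the other G2M genes. Its Col10a1, 31.0 per 10000, lay below the upper quartile of the comparison cells (37.1). The cell at 174 of Col10a1, above that quartile, had 193 UMIs of the other G2M genes. Ibsp (bone sialoprotein, of mineralising cells) was at 99 UMIs in the cell at 283 and at 1098 in the cell at 442, and at 3 or fewer in the other 7. The cell at 442 also held 21 of the 48 Ihh UMIs of all proliferating cells, and 28 UMIs of the pre-B genes. In MGJ2, cell 1 (77645 UMIs, 249 rule-gene UMIs) had 499 Col10a1 UMIs, 64.3 per 10000, and cell 2 (47126 UMIs, 187 rule-gene UMIs) had 0.

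Some of the other hypertrophic genes were lower along with Col10a1. Of 23 that passed the filter besides Col10a1, 10 were at least 2-fold lower and none higher (3.07% of all tested genes were lower), and 13 lay between, 4 of them with an interval above 1. The summed ratio of these genes was 0.377 (0.372 to 0.382) and their median 0.659. Ihh was at 11.9 against 76.5 CPM, 0.156 (0.115 to 0.207), with a UMI in 10 proliferating cells. It was at 0.0687 without the 5 cells with blood progenitor transcripts and at 0.0791 with a threshold of 20 rule-gene UMIs. Ibsp was at 710 against 3997 CPM, 0.178, and 0.114 without the 5 cells, and 1 cell held 38.4% of its UMIs. Spp1 (osteopontin) stood at 0.331, Mmp13 (collagenase 3) at 0.328, Alpl (alkaline phosphatase) at 0.336, the channel protein Panx3 at 0.427, the phosphate-regulating Phex at 0.161, Loxl4 of collagen cross-linking at 0.239 and Cd200 at 0.279. In MGJ2 the 2 cells held no Ibsp and no Ihh, where the comparison cells held 28517 and 925 UMIs, and 6 UMIs of Spp1 each.

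Since the comparison cells included hypertrophic chondrocytes, the same sums were set against the 1583 comparison cells below 10 Col10a1 UMIs per 10000, a set chosen after the values were seen. Of the tested genes, 652 (6.31%) were then at least 2-fold higher and 192 (1.86%) at least 2-fold lower, of which 561 and 154 had been higher and lower in the wider comparison. Without Col10a1, the summed hypertrophic list was at 0.635 (0.627 to 0.644), and of its 23 genes 4 were lower and 1 higher. The lower genes were Ihh at 0.463 (0.339 to 0.619), Ibsp at 0.497, Mmp13 at 0.482 and Cd200 at 0.472, while Spp1 was at 0.532, Alpl at 0.583, Panx3 at 0.575 and Phex at 0.652 (0.366 to 1.08). The higher gene was Fxyd2, a regulator of the sodium pump, at 2.03. Col10a1 cannot be read in this contrast, since it chose the comparison cells.

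**Figure D4:**
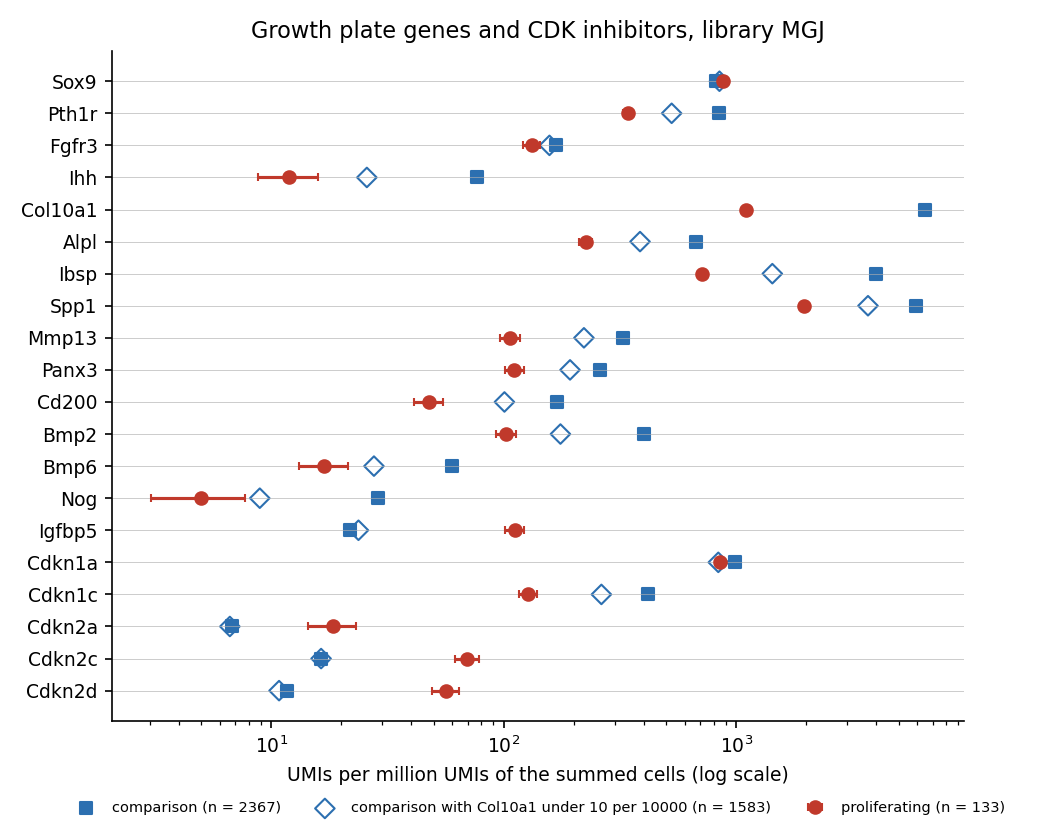
Summed CPM (log scale) of growth plate genes and CDK inhibitors in MGJ, with red points and exact Poisson 95% intervals for the 133 proliferating cells, filled squares for the 2367 comparison cells and open diamonds for the 1583 comparison cells below 10 Col10a1 UMIs per 10000 (not drawn for Col10a1). Sox9 and Cdkn1a lie together in all 3 sets, the hypertrophic genes drawn lie lower in the proliferating cells, and Igfbp5, Cdkn2a, Cdkn2c and Cdkn2d lie higher.

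Of 46 growth plate signalling genes, 8 were at least 2-fold lower and 2 higher, where 3.07% and 6.62% of all tested genes were. Pth1r, the receptor of parathyroid hormone-related protein, was at 342 against 841 CPM (0.407, 0.385 to 0.429), and at 0.649 against the comparison cells low in Col10a1. The ligands Bmp2 (0.254) and Bmp6 (0.283), the BMP antagonist Nog (0.173, and 0.0943 in cells of 10000 to 40000 UMIs), Wnt5b (0.475), the Wnt antagonist Frzb (0.482) and Ccn2, a matricellular growth factor (0.473), made up the rest of the lower genes with Ihh. Against the comparison cells low in Col10a1 these 6 stood between 0.557 and 0.711, and Wnt5b and Frzb were at 0.502 and 0.507 in cells with fewer than 10 blood-gene UMIs per 10000. Igfbp5, which binds insulin-like growth factors, was at 111 against 21.9 CPM (5.10, 4.56 to 5.69), but its UMIs came from 27 cells, 1 of which held 26.1% of them, and the ratio was 3.20 in cells with fewer than 10 blood-gene UMIs per 10000. In MGJ2 Igfbp5 had 0 and 1 UMI in the 2 cells. Areg, an EGF receptor ligand, was at 2.43 on 13 cells.

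CDK inhibitors went in different directions. Of 18 CDK inhibitor and pocket protein genes, 4 were at least 2-fold higher and 1 lower, where 6.62% and 3.07% of all tested genes were. The other 13 lay between. Cdkn1a (p21) was nearly level, at 852 against 983 CPM (0.867, 0.837 to 0.897) and 1.02 (0.983 to 1.05) against the comparison cells low in Col10a1, and its median was 8.08 UMIs per 10000 in proliferating and 8.35 in comparison cells. Cdkn1c (p57), which is known to rise as growth plate chondrocytes stop dividing, was at 127 against 415 CPM (0.306, 0.280 to 0.334), and at 0.484 (0.442 to 0.529) in the narrower comparison. It was at 0 in 57 of 133 proliferating cells, whose highest reached 14.7 UMIs per 10000. Among the INK4 genes, Cdkn2c (p18Ink4c) stood at 4.26 (3.71 to 4.88) and Cdkn2d (p19Ink4d) at 4.84 (4.14 to 5.65). Cdkn2a, the locus of p16Ink4a and p19Arf that 3' counts do not separate, was at 18.4 against 6.79 CPM (2.71, 2.08 to 3.49). Cdkn2b, the remaining INK4 gene, was not among the genes at least 2-fold higher. The pocket protein gene Rbl1 (p107) stood at 6.65 (4.68 to 9.33). In MGJ2, Cdkn1c had 141 UMIs in cell 1, the cell with Col10a1, and 0 in cell 2, and Cdkn2c had 13 and 16.

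Chondrocyte identity genes moved less than the cell cycle genes. Of 27 cartilage matrix genes outside the rule, 23 stayed within 2-fold, and the sum was at 0.806 (0.803 to 0.810). At least 2-fold higher was 1 gene and lower were 3, where 6.62% and 3.07% of all tested genes were. Lower genes were thus not rarer here than among all tested genes. The lower ones were Cytl1, a secreted cartilage cytokine-like protein, at 0.216 (0.143 to 0.313), Chad (chondroadherin) at 0.489 and Matn1 (matrilin 1) at 0.497, of which Chad was at 0.542 and Matn1 at 0.529 in cells with Col2a1 of at least 200 and Acan of at least 20 per 10000. Cilp, of the intermediate layer of cartilage, was higher at 3.20 (2.59 to 3.94) on 18 cells. Sox9 was at 877 against 820 CPM (1.07, 1.03 to 1.11), with 0, 7.21 and 30.8 UMIs per 10000 in the lowest, median and highest proliferating cell and 7.27 in the median comparison cell.

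Of 27 transcription factors of the chondrocyte lineage, 21 lay within 2-fold, and the summed ratio was 0.959. Of the 27, 3 were at least 2-fold higher and 3 lower, where 6.62% and 3.07% of all tested genes were. Sox11 (2.48), Pax1 (2.30) and Barx2 (2.20), which act in skeletal condensation and early cartilage, were higher, and Foxa2 (0.410) and Foxa3 (0.455), which drive the hypertrophic programme, and Dlx3 (0.499, on 8 UMIs, interval 0.213 to 1.0) were lower. Against the comparison cells low in Col10a1 none of the 27 passed 2-fold, with Sox11 at 1.80 and Foxa2 at 0.752. In that contrast 6.31% of all tested genes were higher and 1.86% lower. Of 28 skeletal progenitor and fibrous genes 5 were higher (6.62% of all tested genes were), each in few cells: Thy1 (2.63 on 16 cells), Ly6a (2.64 on 23 cells), Tnmd (2.01 on 29 cells), Mfap5 (2.13 on 22 cells) and Dpt (2.11 on 9 cells). These calls were not stable, since with the stricter Col2a1 and Acan gate Thy1 was at 1.36, Ly6a at 1.74, Tnmd at 1.09, Mfap5 at 1.07 and Dpt at 0.535, and 1 cell held 47.8% of the Mfap5 UMIs.

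Genes of metabolism and secretion stood apart from the cycle genes. None of 18 glycolysis, 28 secretory pathway, 33 oxidative phosphorylation and 83 ribosomal protein genes passed 2-fold in MGJ, and the summed ratios were 1.06, 1.06, 1.04 and 0.963. In the 2 cells of MGJ2 the glycolysis list was at 2.31 (2.17 to 2.45). Of a list of 13 genes of mechanosensing, bone formation and senescence, Lmnb1 and Cdkn2a were higher, as given above, and Spp1 and Bglap (osteocalcin, 0.118 on 8 UMIs) lower. Over all tested genes 6.62% were at least 2-fold higher and 3.07% lower. Piezo1, the mechanosensitive channel at the centre of the study, was at 129 against 108 CPM (1.19, 1.09 to 1.30), with medians of 1.04 and 0.930 UMIs per 10000. In MGJ2 it had 13 and 10 UMIs in the 2 cells, a ratio of 1.5 (0.939 to 2.28).

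The 15 genes of lowest ratio were mostly absent from the proliferating cells at this depth. Saa1, an acute-phase protein, had 0 UMIs in them and 518 in the comparison cells, at least 13.1-fold lower when the 0 is read as 3 UMIs over all proliferating cells. These 518 UMIs lay in 28 of the 2367 comparison cells (1.18%), and 3 cells held 63.5% of them, so the bound rests on few cells. Gpld1, Dsp, Pla2g10, Slco2b1 and Rasgrf2 were also at 0, at least 3.65-fold to 5.77-fold lower. Krtap17-1 (0.0445), B3galt2 (0.0510), Pdzk1ip1 (0.0770), Cidea (0.0805) and Egr4 (0.0934) rested on 1 to 3 UMIs. Hpgd, which degrades prostaglandins, was at 6.21 against 65.7 CPM (0.0944, 0.0610 to 0.140), and 1 cell held 56.0% of its 25 UMIs. Its ratio was 0.0399 without the 5 cells with blood progenitor transcripts. Hbb-bt (haemoglobin beta, 0.0989), Pank1 (0.113) and Bglap completed the list. For Hbb-bt, 3 comparison cells held 88.0% of the comparison UMIs, and the gene had a UMI in 5.26% of proliferating and 4.44% of comparison cells.

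In MGJ2 the 2 proliferating cells held the same mitotic genes. Cell 1 and cell 2 had 17 and 12 UMIs of Hmmr, 17 and 14 of Cenpe, 20 and 10 of Ccna2, and 23 and 20 of Ccnb1, where the 103 comparison cells together held 0, 0, 0 and 1. Stmn1 was at 45 and 23 UMIs and H2afz at 144 and 67. The other G2M genes summed to 11.5-fold (10.7 to 12.4) the comparison level, the kinetochore genes to 25.5-fold and the spindle motors to 63.5-fold, while the S genes were at 1.41 (1.07 to 1.82) and the replication genes at 1.65 (1.28 to 2.09). Both cells thus carried G2M transcripts with few S transcripts. They differed in their cartilage genes: Matn1 was at 62 and 1 UMIs, Sox9 at 83 and 148. With 2 cells, their difference cannot be told apart from the variation between single cells.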

How the data were processed

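Droplet-based 3' single-cell RNA sequencing was performed on callus cells in 2 libraries, MGJ and MGJ2. The deposited matrices hold whole UMI counts per gene and barcode, which the authors made with Cell Ranger, release 4.0.0 by the file header. The submitters' processing notes name GRCm38 and Seurat. No label gave a library its day, so both stayed unassigned and no test between groups was run. The members, gene lists and comparisons were chosen with earlier results of these data known. UMIs were summed over cells as CPM (UMIs per 1000000 UMIs). Ratios had exact conditional binomial 95% intervals, levels exact Poisson and shares Clopper-Pearson intervals. Genes were compared when at least 10 UMIs were expected in the proliferating cells, and past the fold meant at least 2 or at most 0.5. The 13 rule genes were left out. Named genes came from fixed lists (Seurat S and G2M genes, cycle machinery, cartilage, hypertrophy, growth plate signalling, metabolism) or were the 15 highest and 15 lowest ratios. The S and G2M sums came from cells thinned to 5000 UMIs in 1 seeded draw. Promoters and motifs came from RefSeq (GRCm38.p6). Depth was 135304426 UMIs in MGJ and 61130834 in MGJ2. Doublets were called with Scrublet in scanpy 1.11.5 and kept in the main values. The scripts (Python 3.11.15, numpy 2.4.6, scipy 1.17.1, pandas 2.3.3) were tested on simulated data. The alternatives changed the marker threshold, cartilage gate, depth range, cell weight, scaling, doublets, blood genes and low-count filter, and the choices added after seeing the data left out cells with blood progenitor transcripts or kept only comparison cells low in Col10a1.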

Additional observations from a re-analysis of the deposited data

Results flagged for a closer look

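Transcripts of the 6 cycle genes were also found in cartilage-gated barcodes of MGJ that entered no comparison. The 125 barcodes under 5000 UMIs held 22 of these UMIs, 60.7 CPM (UMIs per 1000000 UMIs), and none reached 10. The 145 barcodes with 50 or more blood-gene UMIs per 10000 held 495, 149 CPM (136 to 163), and 10 of them reached 10 UMIs. These 145 also held 70 UMIs of the granule genes Mpo, Elane, Prtn3, Ctsg and Ms4a3. They are listed because these counts exceed the 3 UMIs that a count of 0 allows, which shows presence and nothing more, and the level of free RNA in these droplets was not measured. Whether the cycle transcripts in these barcodes came from chondrocytes or from blood cells was not tested.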

How the results depend on the processing

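All values here are for MGJ unless MGJ2 is named. The share of proliferating chondrocytes (5.32%) was 4.21% at a threshold of 20 UMIs and 5.04 to 5.32% in the other settings run, and in MGJ2 it was 0 among cells of 10000 to 40000 UMIs, where neither of the 2 cells falls. The ratio of the other G2M genes (8.78) was 9.66 at 20 UMIs, 9.12 with a threshold of 5 UMIs per 10000, 9.14 in cells of 10000 to 40000 UMIs, 9.0 with cells weighted equally, 8.99 without doublets, 8.98 without cells with blood progenitor transcripts and 10.8 against comparison cells low in Col10a1. The ratio of Col10a1 (0.169) was 0.0626, 0.106, 0.188 and 0.139 in the first 4 of these settings, 0.194 with Col2a1 of at least 200 and Acan of at least 20 per 10000, 0.179 with blood genes below 10 per 10000 and 0.108 without cells with blood progenitor transcripts. The numbers of genes higher and lower (684 and 317) were 304 and 169 with 30 UMIs expected and 2966 and 5632 without a filter, where the share of higher among called genes was 34.5% in place of 68.3%. Against comparison cells low in Col10a1 they were 652 and 192, a share of 77.3%. The median log2 ratio of tested genes, 0.13, ran from 0.10 to 0.14 in the other settings with a filter and was 0.0086 without one. Of 87 named genes under the 9 alternatives other than comparison cells low in Col10a1, 2 of 783 values moved across a ratio of 1: Dpt at 0.535 with the stricter gate and Mfap5 at 0.785 in cells of 10000 to 40000 UMIs. The cause was not tested. Under these 9, 10 genes, Dpt and Mfap5 among them, crossed 2-fold. Against comparison cells low in Col10a1, 24 of 86 named genes crossed 2-fold, Spp1, Alpl, Panx3, Phex, Pth1r, Sox11 and Foxa2 among them, and 2 others moved across 1, Pttg1 at 1.08 and Cdkn1a at 1.02. The ratio of Foxa2 was 0.217 in cells of 10000 to 40000 UMIs and that of Hpgd 0.0138 at 20 UMIs. No paired analysis was possible because no label gave either library a group or a replicate number and no test was run. Depth limits low genes most, and MGJ2 rests on 2 cells.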
